A study of Mus musculus with 27 samples.

Results

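The comparison described here is the difference between 2 load responses of messenger RNA in the left ventricle: the change of aortic constriction over sham operation in caPI3Kalpha mice, minus the same change in wild-type (WT) mice. All 8987 genes of the deposited mRNA table were tested, and 28 of them differed by genotype at an adjusted p under 0.05 (limma, Benjamini-Hochberg over all genes). The 28 genes are 0.312% of the genes tested, and in each of them the response was lower in caPI3Kalpha. No gene had a higher response in caPI3Kalpha at that threshold, 0.0% of the genes tested. At an unadjusted p under 0.05 in limma the counts were 806 lower (8.97%) and 120 higher (1.34%).

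The animals were adult FVB mice, and their left ventricles were taken 7 days after surgery. Transverse aortic constriction (TAC) narrows the aorta and makes the ventricle pump against a higher pressure, while sham animals have the operation without the constriction. caPI3Kalpha denotes a constitutively active alpha catalytic subunit of phosphoinositide 3-kinase, and the labels call its carriers PI3Kalpha mutants without giving the promoter or the cell type that drives the allele. Of 27 libraries in the series, 11 held mRNA: caPI3Kalpha TAC 11 and 211, caPI3Kalpha sham 5 and 8, WT TAC 1, 17 and 19, and WT sham 6, 7, 13 and 15, each made from the ventricle of 1 mouse and named here by the number in its title.

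PI3Kalpha is a lipid kinase that acts below the insulin and insulin-like growth factor receptors and activates Akt, and in the heart it is known for its part in the growth that follows exercise. Pressure load is known to bring back fetal genes in cardiomyocytes, to lower genes of fatty acid oxidation, to activate fibroblasts that lay down collagen and matricellular proteins, and to draw in macrophages. Matricellular proteins are secreted into the matrix and tune how cells attach to it, without being part of its load-bearing fibres.

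Expression is given as RPKM, reads per transcript length and sequencing depth, at 1 decimal. Changes are differences of group means of log2(RPKM + 0.5), which understates the change of genes near 0.5 RPKM. The sum of listed RPKM lay between 202916.4 and 212396.3 in the 11 libraries, and read depth is unknown. Pik3ca, the gene that encodes the altered subunit, was at 110.5 and 101.3 RPKM in caPI3Kalpha TAC, 115.4 and 195.0 in caPI3Kalpha sham, 5.6, 8.1 and 8.9 in WT TAC and 5.3, 8.5, 7.7 and 7.0 in WT sham, so each library fitted its genotype label. The cardiomyocyte gene Myh6, the alpha myosin heavy chain, was at 1885.6 RPKM or more in every library. The summed RPKM of 4 red blood cell genes spanned 30.0 to 761 in caPI3Kalpha TAC, 12.1 to 256 in caPI3Kalpha sham, 19.4 to 200 in WT TAC and 15.8 to 217 in WT sham, and its part in the results was not tested. The first principal component, with 52% of the variance, parted the libraries into a first set of 6, which holds all 4 caPI3Kalpha libraries with WT TAC 1 and WT sham 6, and a second set of 5, which holds the other WT libraries. The labels name no such sets. The results below are therefore also given with the set as a term, and for the first set alone, where WT has 1 library per operation.

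In WT, 1225 genes (13.6%) were higher and 256 (2.85%) lower after TAC (limma, adjusted p under 0.05), and of these 308 (3.43%) rose and 22 (0.245%) fell at least 2-fold. In caPI3Kalpha no gene passed the adjusted threshold, 0.0% in either direction, and in limma 263 genes (2.93%) were higher and 191 (2.13%) lower at an unadjusted p under 0.05. The split of WT calls depended on the scaling: 486 higher (5.41%) and 439 lower (4.88%) under quantile normalization, and 561 (6.24%) and 610 (6.79%) with libraries centred on their medians. The median change of all genes was 0.01 in caPI3Kalpha and 0.17 in WT on the log2 scale, so the median difference was -0.16, the level against which each difference below is to be read. The difference was below 0 for 6260 of the 8987 genes (69.7%) and above 0 for 2727 (30.3%), so most members of any list are below 0 as a matter of background. The 308 genes that rose in WT had a median change of 0.31 in caPI3Kalpha, against 1.32 in WT, and 236 of them had a caPI3Kalpha change in the WT direction. The 22 genes that fell in WT had a median of -0.41 in caPI3Kalpha, against -1.26 in WT. These genes were chosen on WT libraries, which by itself favours a larger WT value.

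The caPI3Kalpha change was set against the WT change of the same gene as a share on the log2 scale. Among the 308 WT rises the median share was 23.2%. The share was below 0 for 72 genes, between 0 and 25% for 90, between 25 and 50% for 94, between 50 and 75% for 39, between 75 and 100% for 9, and 100% or more for 4. Among the 22 WT falls the median share was 31.0%. A choice of genes on the second set alone, which holds no caPI3Kalpha library, gave 344 rises, and in the first set these had a median change of 0.28 in caPI3Kalpha and 1.19 in WT. The same choice gave 51 falls, with first-set medians of -0.38 in caPI3Kalpha and -0.56 in WT, so the genotypes lay closer for the falls than for the rises. The WT values in the first set rest on 1 TAC and 1 sham library.

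**Figure D1:**
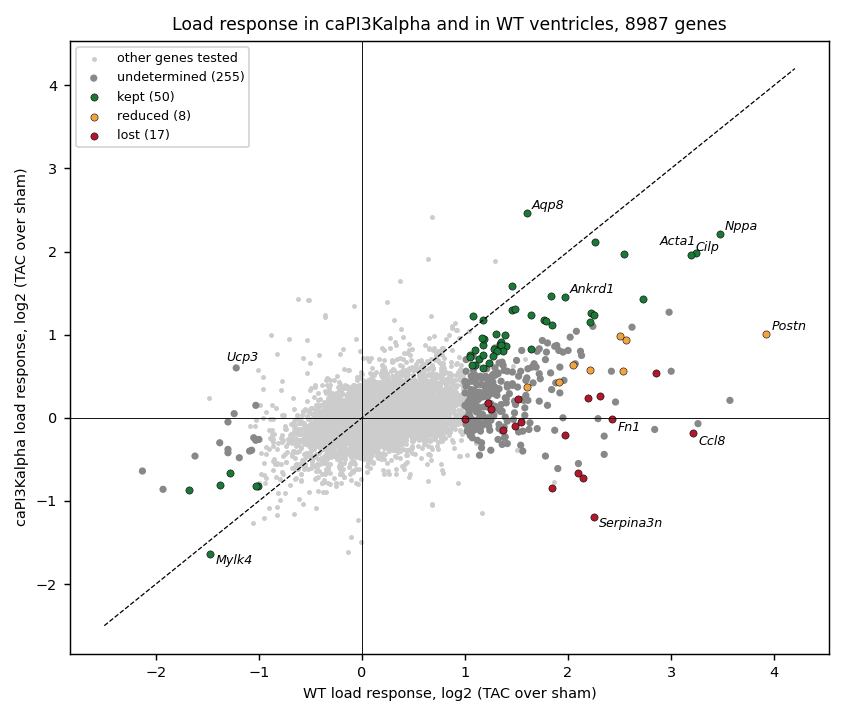
Load response of 8987 genes, as the log2 change of TAC over sham in WT (x axis) and in caPI3Kalpha (y axis). Points on the dashed line would respond alike. Of 330 genes that changed at least 2-fold in WT, 17 are drawn as lost, 8 as reduced, 50 as kept and 255 as undetermined, and most lie between the dashed line and 0.

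The 330 genes were sorted by what caPI3Kalpha did. A response is called lost where the difference by genotype passed adjusted p 0.05 against the WT direction and caPI3Kalpha showed no change in the WT direction at an unadjusted p of 0.05. It is called reduced where that difference passed and caPI3Kalpha still differed in the WT direction at that unadjusted p, and kept where the difference did not pass and caPI3Kalpha did so by at least 50% of the WT log2 change. By these definitions 17 responses (0.189% of all genes) were lost, 8 (0.0890%) reduced and 50 (0.556%) kept. The other 255 (2.84%) were undetermined, since a p above the threshold does not show that the responses are alike. A gain was looked for among all genes, not only the 330. It needed a difference past adjusted p 0.05 and a caPI3Kalpha change in the same direction at an unadjusted p of 0.05. The WT change had to share that direction or miss the adjusted threshold. No response was gained, 0.0% of all genes. The median change of the lost genes was -0.05 in caPI3Kalpha and 1.97 in WT, that of the reduced genes 0.61 in caPI3Kalpha and 2.35 in WT, and that of the kept genes 0.93 in caPI3Kalpha and 1.34 in WT.

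The 28 genes with a lower response in caPI3Kalpha are described below by what their products are known to do: matrix genes, then serine protease inhibitors and immune genes, then the rest. Their fold change ran between 0.439 and 2.01 in caPI3Kalpha (median 1.04) and between 1.48 and 15.1 in WT (median 4.03). In caPI3Kalpha 14 of the changes were above 0 and 14 below 0. The mean in caPI3Kalpha sham was above the mean in WT sham for 23 of the 28, with a median log2 difference over the 28 of 0.26. The share of all genes with that order was not counted, and a higher caPI3Kalpha sham value by itself lowers the difference. The mean in caPI3Kalpha TAC was below that in WT TAC with log2 differences of -2.82 to -0.86. The difference contains both responses, so these values describe the genes and do not test them again. WT TAC lay above WT sham without overlap in 28 of the 28 genes, against 18.9% of all genes. In caPI3Kalpha, TAC lay above sham without overlap in 11 of the 28 and below it in 8, against 22.4% and 20.0% of all genes.

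**Figure D2:**
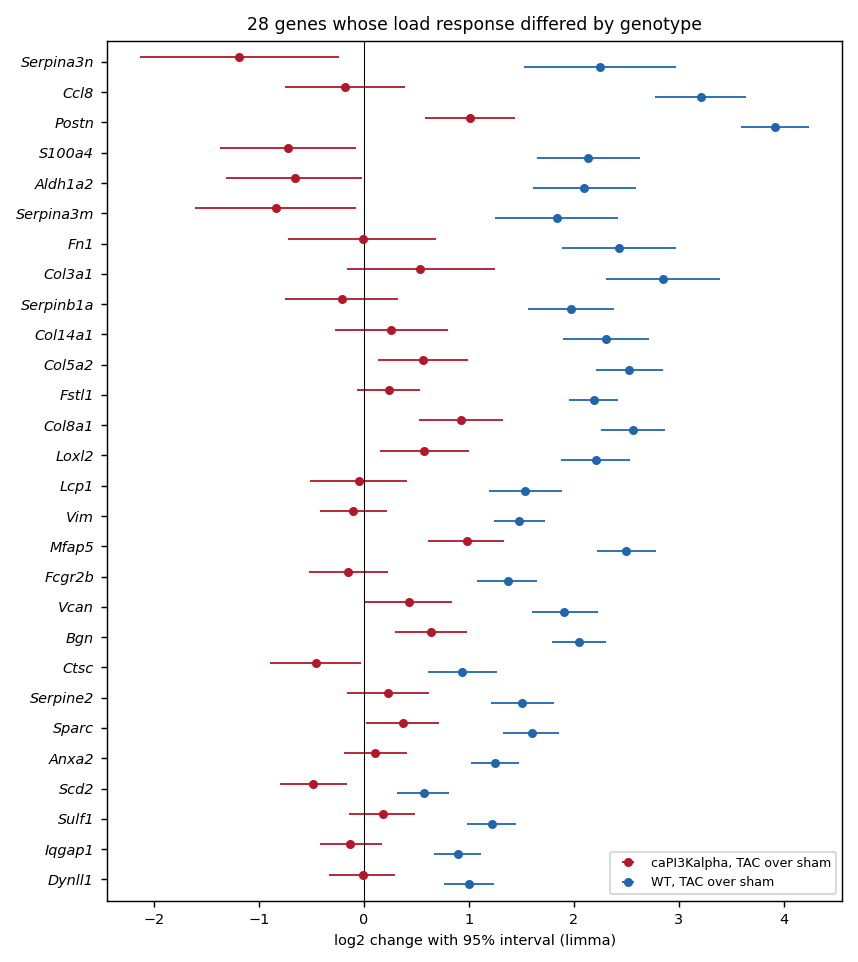
Log2 change of TAC over sham in caPI3Kalpha (red) and in WT (blue) for the 28 genes whose load response differed by genotype, with 95% intervals from limma, ordered by the size of the difference. The WT intervals lie above 0 for each gene, and 14 of the 28 caPI3Kalpha intervals hold 0.

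Promoters were looked up in RefSeq (GRCm38.p6), as the 250 bases before to the 50 after each annotated start, and 19 of the 28 genes had an entry, with 21 promoters. The 4 below are shown as examples that hold the letters TATAAA, the core of a TATA box, near the start of a gene described below. Anxa2 and Col3a1, also among the 28, hold the same letters, 17 and 117 bases before the start, and are not shown. Capitals mark those letters.
Postn, the second of its 2 starts, chr3:54360857-54361156, plus strand: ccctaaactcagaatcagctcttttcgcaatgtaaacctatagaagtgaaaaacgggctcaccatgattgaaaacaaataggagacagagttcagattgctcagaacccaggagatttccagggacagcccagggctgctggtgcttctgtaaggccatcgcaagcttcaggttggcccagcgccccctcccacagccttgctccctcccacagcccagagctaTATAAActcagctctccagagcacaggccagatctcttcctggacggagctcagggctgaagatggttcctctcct
Ccl8, chr11:82114935-82115234, plus strand: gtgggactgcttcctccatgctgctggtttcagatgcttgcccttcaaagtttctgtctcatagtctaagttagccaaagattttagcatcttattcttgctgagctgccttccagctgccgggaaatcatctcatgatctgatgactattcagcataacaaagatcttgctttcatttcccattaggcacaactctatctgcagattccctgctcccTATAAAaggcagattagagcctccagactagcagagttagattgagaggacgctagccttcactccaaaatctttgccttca
Vim, chr2:13574061-13574360, plus strand: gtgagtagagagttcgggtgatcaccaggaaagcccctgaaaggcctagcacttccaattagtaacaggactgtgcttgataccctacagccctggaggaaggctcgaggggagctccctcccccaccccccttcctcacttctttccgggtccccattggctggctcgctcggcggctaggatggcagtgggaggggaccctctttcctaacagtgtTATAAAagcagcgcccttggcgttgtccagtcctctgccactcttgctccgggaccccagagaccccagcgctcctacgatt
S100a4, chr3:90603520-90603819, plus strand: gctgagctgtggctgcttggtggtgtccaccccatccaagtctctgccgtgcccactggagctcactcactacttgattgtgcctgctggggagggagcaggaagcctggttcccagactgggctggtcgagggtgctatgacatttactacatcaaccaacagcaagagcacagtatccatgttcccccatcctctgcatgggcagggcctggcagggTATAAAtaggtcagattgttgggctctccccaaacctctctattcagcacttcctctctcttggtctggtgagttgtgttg

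The first T of TATAAA lay 26 bases before the start in Postn, 32 in Ccl8, 32 in Vim and 31 in S100a4. Searched on both strands, TATAAA stood in 6 of the 21 promoters of the 28 genes, 28.6%, in 7.32% of the 41 promoters of the kept genes and in 7.28% of the 8355 promoters of all genes tested. The other motifs searched in the 21 promoters were TGANTCA (AP-1) in 4.76%, CAGACA (SMAD) in 19.0%, GGAATG (TEAD) in 9.52%, CANNTG (E-box, which can lie within or across the others) in 57.1%, and TGTTTAC (FoxO) and the CArG box in 0.0% each. For all genes tested the shares were 4.86, 15.1, 12.3, 62.9, 2.32 and 1.48%. GGAATG stood in 31.7% and CANNTG in 82.9% of the promoters of the kept genes. A match is a stretch of letters and not a shown binding site.

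Matricellular and adhesive proteins were among the 28, with Postn, Fstl1 and Fn1 at several-fold lower levels in caPI3Kalpha TAC than in WT TAC. Postn encodes periostin, which marks activated cardiac fibroblasts. It was at 28.0 and 28.8 RPKM in caPI3Kalpha TAC, 13.5 and 14.2 in caPI3Kalpha sham, 142.9, 200.9 and 168.7 in WT TAC and 11.1, 11.8, 12.1 and 8.4 in WT sham. Each WT TAC library was far above both caPI3Kalpha TAC libraries, and within each genotype TAC and sham did not overlap. Its change was 2.01-fold in caPI3Kalpha and 15.1-fold in WT, a log2 difference of -2.91 (95% interval -3.45 to -2.36, limma adjusted p 0.00105), and 25.8% of the WT log2 change was seen in caPI3Kalpha. Fstl1, a secreted glycoprotein of the follistatin family, was at 28.9 and 28.7 RPKM in caPI3Kalpha TAC, 26.9 and 22.0 in caPI3Kalpha sham, 84.6, 96.9 and 86.3 in WT TAC and 20.1, 19.1, 18.3 and 19.3 in WT sham. The caPI3Kalpha TAC libraries stood just above their shams and well under every WT TAC library. The log2 change was 0.24 in caPI3Kalpha and 2.19 in WT, and the difference was -1.95 (-2.33 to -1.57, limma adjusted p 0.00105).

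Fn1, fibronectin, which links cells to collagen, was at 5.4 and 7.9 RPKM in caPI3Kalpha TAC, 6.5 and 6.7 in caPI3Kalpha sham, 51.8, 28.5 and 21.5 in WT TAC and 5.6, 5.1, 6.1 and 5.1 in WT sham. In caPI3Kalpha the TAC libraries lay on either side of the shams, whereas in WT all TAC libraries were above all shams, with WT TAC 1 highest. The change was 0.992-fold in caPI3Kalpha and 5.4-fold in WT, a log2 difference of -2.45 (-3.33 to -1.56, limma adjusted p 0.0340). Sparc, a collagen-binding matricellular protein, and Vcan, the large proteoglycan versican, were classed as reduced, by an unadjusted p close to the limit. Sparc had a 1.29-fold change in caPI3Kalpha at an unadjusted p of 0.0382 (limma), against 3.03-fold in WT. Vcan had a 1.34-fold change in caPI3Kalpha at an unadjusted p of 0.0452, against 3.77-fold in WT. Col3a1, described below, was classed as lost with a larger 1.46-fold change in caPI3Kalpha at an unadjusted p of 0.116, so the 2 classes do not part by size. Of 17 listed matricellular and adhesive genes in the table, 3 (Postn, Fn1 and Vcan) passed with a lower response in caPI3Kalpha and 15 had a difference below 0. In WT 14 of the 17 were higher after TAC at the adjusted threshold, against 13.6% of all genes. Their median log2 change was 0.53 in caPI3Kalpha and 1.91 in WT.

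Collagens followed the same order. Col3a1, a fibrillar collagen of compliant tissue, was at 39.1 and 46.3 RPKM in caPI3Kalpha TAC, 36.1 and 23.3 in caPI3Kalpha sham, 259.0, 147.1 and 127.0 in WT TAC and 28.3, 24.8, 19.7 and 20.3 in WT sham. The lowest WT TAC library was above all caPI3Kalpha libraries, and the caPI3Kalpha TAC libraries did not overlap their shams. The change was 1.46-fold in caPI3Kalpha, with a 95% interval that held 0 on the log2 scale, and 7.21-fold in WT (log2 difference -2.31, -3.19 to -1.42, limma adjusted p 0.0455). Col14a1, a fibril-associated collagen, had log2 changes of 0.26 in caPI3Kalpha and 2.31 in WT (adjusted p of the difference 0.0223). Col5a2, which takes part in starting fibrils, was at 5.6 and 6.4 RPKM in caPI3Kalpha TAC, 4.2 and 3.6 in caPI3Kalpha sham, 23.7, 21.9 and 17.2 in WT TAC and 3.4, 3.7, 3.1 and 2.6 in WT sham. It had a 1.48-fold change in caPI3Kalpha at an unadjusted p of 0.0135, without overlap of the libraries, against 5.78-fold in WT (difference -1.97, adjusted p 0.00993).

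Col8a1, a short-chain network collagen, had a 1.91-fold change in caPI3Kalpha at an unadjusted p of 0.000324, against 5.92-fold in WT (adjusted p of the difference 0.0156). The list of fibrillar and fibril-associated collagens, in which Col8a1, Col6a1 and Col6a2 were also placed, had 11 members in the table. Of these 4 passed with a lower response in caPI3Kalpha, Col8a1 among them, and all 11 differences were below 0. Their median log2 change was 0.56 in caPI3Kalpha and 2.31 in WT, where 10 of the 11 were higher at the adjusted threshold (13.6% of all genes). Col1a1, the main fibrillar collagen of scar, did not pass: it was at 22.6 and 28.3 RPKM in caPI3Kalpha TAC, 19.5 and 14.8 in caPI3Kalpha sham, 147.4, 48.1 and 35.1 in WT TAC and 15.5, 6.8, 5.8 and 4.9 in WT sham. WT TAC 1 and WT sham 6, the WT libraries of the first set, were each the highest of their group. Its log2 difference of -2.44 (-4.12 to -0.75) had an adjusted p of 0.269 without and 0.00112 with the set term. With the set term 9 of the 11 collagens passed, all lower, against 5.92% of all genes.

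The other matrix genes among the 28 were Loxl2, Mfap5, Bgn and Sulf1. Loxl2, an enzyme that crosslinks collagen and elastin, had a log2 change of 0.57 in caPI3Kalpha and 2.21 in WT. Mfap5, a microfibril glycoprotein, was at 10.7 and 13.0 RPKM in caPI3Kalpha TAC, 5.5 and 6.0 in caPI3Kalpha sham, 21.1, 24.5 and 19.9 in WT TAC and 4.0, 3.5, 3.3 and 3.0 in WT sham. It had the largest share of the WT log2 change among the 28, 39.1%, and all groups stood apart from each other, caPI3Kalpha sham above WT sham. Bgn, the small proteoglycan biglycan, had a 1.56-fold change in caPI3Kalpha at an unadjusted p of 0.00168, against 4.14-fold in WT. Sulf1, which trims sulphate from heparan sulphate chains, had a 1.13-fold change in caPI3Kalpha and 2.32-fold in WT (limma adjusted p of the difference 0.0437). Lox, the founding enzyme of the crosslinking family, was at 0.9 and 1.1 RPKM in caPI3Kalpha TAC, 1.4 and 0.7 in caPI3Kalpha sham, 12.5, 6.6 and 5.9 in WT TAC and 1.2, 1.5, 0.9 and 1.3 in WT sham. Only the WT TAC libraries stood out, yet the difference of -2.31 missed the threshold (adjusted p 0.0655).

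Against 69.7% of all genes below 0 and 0.312% past the threshold, the other matrix lists read as follows. Of 17 listed genes of collagen processing and crosslinking 1 passed and all 17 differences were below 0, with median changes of 0.14 in caPI3Kalpha and 0.95 in WT. Elastic fibre and microfibril genes numbered 14 in the table, of which 1 passed and 13 were below 0 (medians 0.25 in caPI3Kalpha and 1.36 in WT). Of 16 basement membrane genes 1 passed and all 16 were below 0 (medians 0.19 in caPI3Kalpha and 0.74 in WT), and of 7 small leucine-rich proteoglycans 1 passed and all 7 were below 0 (medians 0.41 in caPI3Kalpha and 0.96 in WT). Metalloproteinases and their inhibitors stood nearer the background: of 10 in the table none passed and 8 were below 0 (medians 0.06 in caPI3Kalpha and 0.73 in WT). At an unadjusted p under 0.05 in limma 1 of the 10 was lower, against 8.97% of all genes, and 3 were counted as kept. Markers of activated fibroblasts, a list that includes Postn, had 9 members in the table, none at 0 in any library, of which 1 passed and all 9 were below 0. Their summed RPKM spanned 67.6 to 80.9 in caPI3Kalpha TAC, 55.5 to 84.8 in caPI3Kalpha sham, 255 to 317 in WT TAC and 60.3 to 72.4 in WT sham. In that sum only WT TAC stood apart. Gene by gene, 6 of the 9 were higher and 1 lower in caPI3Kalpha after TAC at an unadjusted p under 0.05 (limma). The shares of all genes were 2.93% and 2.13%. The median changes of the 9 were 0.80 in caPI3Kalpha and 2.62 in WT, and 2 were counted as kept. Of 11 markers of fibroblast identity 1 passed. At an unadjusted p under 0.05, 5 of them were lower and 1 was higher, against 8.97% and 1.34% of all genes. Their 8 differences below 0 are near the share of all genes, 69.7%, and their sum was 678 to 717 in caPI3Kalpha TAC, 539 to 592 in caPI3Kalpha sham, 788 to 882 in WT TAC and 575 to 655 in WT sham. In whole ventricle, fewer cells of a type and less RNA per cell cannot be told apart, and the part of fibroblast number in the matrix genes was not tested. Tnc (tenascin C), Timp1 (a metalloproteinase inhibitor) and Spp1 (osteopontin) had some of the widest differences, -2.98, -3.33 and -3.36, and missed the threshold at adjusted p of 0.0655, 0.0898 and 0.0898. Timp1 was at 1.4 and 1.0 RPKM in caPI3Kalpha TAC, 1.9 and 0.8 in caPI3Kalpha sham, 20.5, 10.8 and 6.1 in WT TAC and 1.5, 0.3, 1.0 and 0.4 in WT sham, so the WT TAC libraries differed more than 3-fold among themselves.

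Several of the 28 genes encode serine protease inhibitors or proteins known from immune cells. Serpina3n, an acute-phase protease inhibitor, was at 7.2 and 8.0 RPKM in caPI3Kalpha TAC, 24.9 and 12.9 in caPI3Kalpha sham, 88.2, 52.0 and 37.4 in WT TAC and 18.2, 10.9, 8.1 and 10.1 in WT sham. The genotypes had opposite orders: both caPI3Kalpha TAC libraries were below their shams, and all WT TAC libraries were above theirs. The change was 0.439-fold in caPI3Kalpha, at an unadjusted p of 0.0182 and an adjusted p of 0.742, and 4.75-fold in WT (log2 difference -3.44, -4.63 to -2.25, limma adjusted p 0.0302). Serpina3m, its close relative, had log2 changes of -0.84 in caPI3Kalpha and 1.84 in WT. The Serpina3 genes are a family of near copies whose reads the counting could have split, so their separate values are uncertain. Serpinb1a, an inhibitor of neutrophil proteases, had log2 changes of -0.21 in caPI3Kalpha and 1.97 in WT, and Serpine2, which inhibits thrombin, 0.23 in caPI3Kalpha and 1.51 in WT.

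Ccl8, a chemokine that attracts monocytes and other leukocytes, was at 1.3 and 0.9 RPKM in caPI3Kalpha TAC, 1.2 and 1.4 in caPI3Kalpha sham, 8.4, 13.3 and 11.0 in WT TAC and 0.6, 0.6, 1.0 and 0.7 in WT sham. All libraries other than WT TAC were at or under 1.4 RPKM, and caPI3Kalpha TAC overlapped caPI3Kalpha sham. The change was 0.883-fold in caPI3Kalpha and 9.24-fold in WT (log2 difference -3.39, -4.11 to -2.67, limma adjusted p 0.00161). Fcgr2b, the inhibitory receptor for immunoglobulin G, had a 0.902-fold change in caPI3Kalpha and 2.58-fold in WT, and Lcp1, the actin bundler of leukocytes, had a 0.967-fold change in caPI3Kalpha and 2.90-fold in WT. Ctsc, a lysosomal protease that activates granule proteases, was at 3.3 and 3.2 RPKM in caPI3Kalpha TAC, 5.3 and 4.1 in caPI3Kalpha sham, 10.6, 10.3 and 11.1 in WT TAC and 4.1, 5.6, 5.3 and 6.6 in WT sham. Here too the caPI3Kalpha TAC libraries were below all shams of either genotype, at an unadjusted p of 0.0376.

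Of 13 measured chemokines and cytokines 1 passed and 12 differences were below 0, with median changes of -0.18 in caPI3Kalpha and 0.46 in WT. None of 16 macrophage markers passed in limma, 13 were lower at an unadjusted p under 0.05 (8.97% of all genes), and all 16 differences were below 0. The median changes of these markers were -0.03 in caPI3Kalpha and 1.08 in WT, where 12 of the 16 were higher at the adjusted threshold (13.6% of all genes). Their summed RPKM spanned 138 to 167 in caPI3Kalpha TAC, 128 to 202 in caPI3Kalpha sham, 329 to 371 in WT TAC and 151 to 163 in WT sham, and no marker of the list was at 0 in any library. The part of macrophage number in the immune genes was not tested. Csf1r, the receptor that macrophages need to survive, was at 5.8 and 7.6 RPKM in caPI3Kalpha TAC, 7.4 and 5.0 in caPI3Kalpha sham, 15.1, 12.8 and 11.2 in WT TAC and 5.6, 6.5, 5.9 and 6.2 in WT sham. Both sham groups and caPI3Kalpha TAC overlapped, and its difference of -0.92 had an adjusted p of 0.210 (0.0431 with the set term). With the set term 12 of the 16 markers passed, all lower, against 5.92% of all genes.

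Complement genes showed 14 of 15 differences below 0 (medians -0.06 in caPI3Kalpha and 0.78 in WT). None of the 15 passed in limma, and 8 were lower at an unadjusted p under 0.05 (8.97% of all genes). Lysosomal genes showed 20 of 20 below 0 (medians 0.06 in caPI3Kalpha and 0.60 in WT), and 1 passed. In antigen presentation 8 of 11 differences were below 0, near the 69.7% of all genes, none passed in limma with or without the set term, 0 had an unadjusted p under 0.05, and the median change was 0.51 in caPI3Kalpha and 0.84 in WT. H2-Ab1, a class II histocompatibility chain, was counted as kept, with 10.5 and 13.3 RPKM in caPI3Kalpha TAC, 4.4 and 7.3 in caPI3Kalpha sham, 17.1, 10.5 and 12 in WT TAC and 5.5, 2.6, 6.0 and 5.2 in WT sham. The 18 neutrophil and lymphocyte markers searched for had 0 members in the table, whose genes all reach 3 RPKM in some library.

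**Figure D3:**
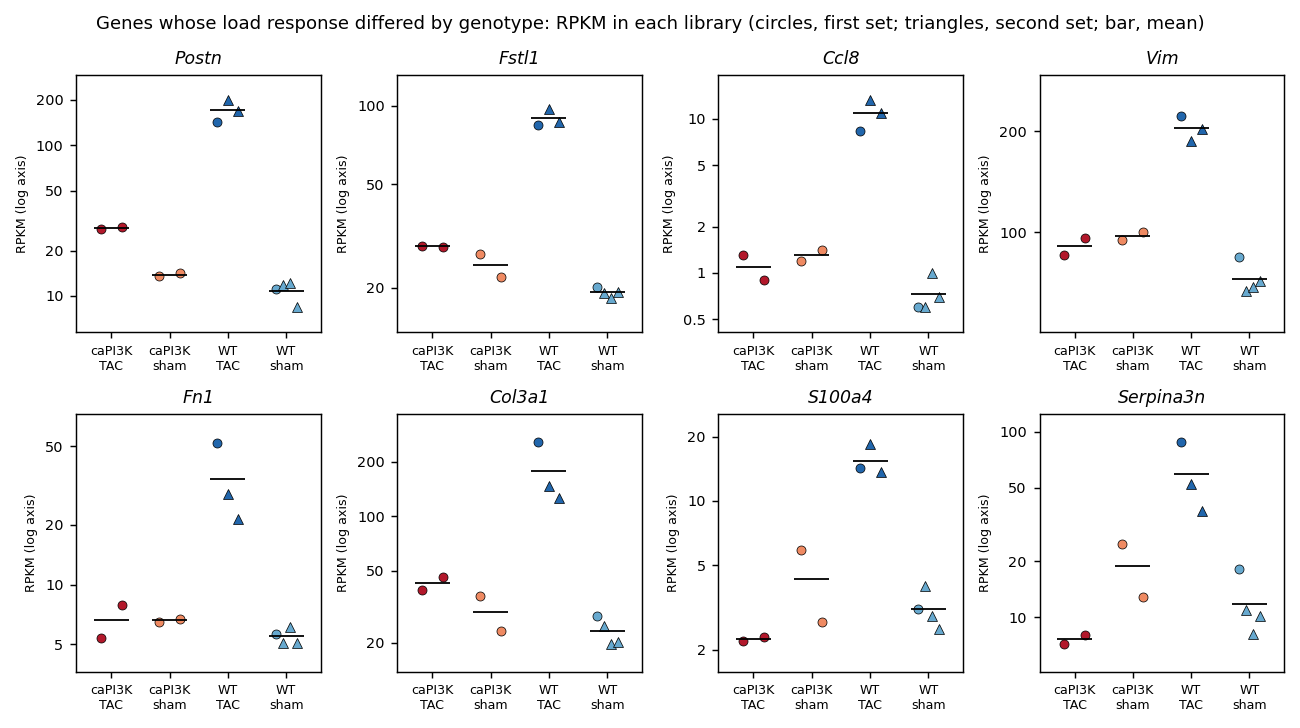
RPKM of 8 of the 28 genes in each of the 11 libraries on a log axis, by group, with circles for the first library set, triangles for the second and a bar at the group mean. In each panel the WT TAC libraries lie above all other libraries, and in Serpina3n and S100a4 the caPI3Kalpha TAC libraries lie below their shams.

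The other genes among the 28 act in the cytoskeleton, at membranes or in metabolism. Vim, the intermediate filament vimentin of non-muscle cells, was at 85.5 and 96.0 RPKM in caPI3Kalpha TAC, 94.9 and 100 in caPI3Kalpha sham, 221.9, 187.3 and 203.1 in WT TAC and 84.1, 66.8, 68.6 and 71.7 in WT sham. The caPI3Kalpha groups overlapped, and both sat above WT sham and far below WT TAC. The change was 0.930-fold in caPI3Kalpha and 2.80-fold in WT (log2 difference -1.59, -1.99 to -1.19, limma adjusted p 0.00670). S100a4, a calcium-binding protein of motile cells, was at 2.2 and 2.3 RPKM in caPI3Kalpha TAC, 5.9 and 2.7 in caPI3Kalpha sham, 14.2, 18.4 and 13.7 in WT TAC and 3.1, 4.0, 2.9 and 2.5 in WT sham. It was lowest in caPI3Kalpha TAC and highest in WT TAC (log2 changes -0.72 in caPI3Kalpha and 2.14 in WT, adjusted p of the difference 0.0137). Aldh1a2, which makes retinoic acid, had the same order of group means, with log2 changes of -0.66 in caPI3Kalpha and 2.10 in WT (adjusted p of the difference 0.0149).

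Anxa2, a membrane-binding annexin, had a 1.08-fold change in caPI3Kalpha and 2.38-fold in WT, and Dynll1, a dynein light chain, had a 0.991-fold change in caPI3Kalpha and 2.00-fold in WT. Iqgap1, a scaffold of actin and small GTPases, and Scd2, a fatty acid desaturase, are with Ctsc the 3 of the 28 that rose less than 2-fold in WT. Scd2 was at 3.2 and 2.7 RPKM in caPI3Kalpha TAC, 4.5 and 4.1 in caPI3Kalpha sham, 6.0, 5.8 and 5.7 in WT TAC and 3.5, 4.0, 3.6 and 4.0 in WT sham, so TAC and sham parted in opposite directions in the 2 genotypes. Of 26 tubulin and cytoskeleton genes 1 passed and 24 differences were below 0 (medians 0.07 in caPI3Kalpha and 0.82 in WT). Actb, cytoplasmic beta actin, was among the rest: it was at 75 and 103.7 RPKM in caPI3Kalpha TAC, 92.3 and 78.4 in caPI3Kalpha sham, 172.2, 133.8 and 131.9 in WT TAC and 80.0, 68.8, 64.1 and 69.7 in WT sham (difference -0.98, adjusted p 0.152, 0.0112 with the set term).

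Of 13 cell cycle genes none passed in limma, 11 were lower at an unadjusted p under 0.05 (8.97% of all genes), and 12 differences were below 0 (69.7% of all genes). Their median log2 change was -0.17 in caPI3Kalpha and 0.97 in WT, where 11 of the 13 were higher at the adjusted threshold (13.6% of all genes). Mki67, a marker of dividing cells, was at 0.8 and 0.6 RPKM in caPI3Kalpha TAC, 0.6 and 2.3 in caPI3Kalpha sham, 5.3, 3.5 and 6.5 in WT TAC and 0.4, 1.1, 1.0 and 0.7 in WT sham. The WT TAC libraries were above all others, and caPI3Kalpha sham 8 was the highest of the rest (difference -2.66, -3.88 to -1.43, limma adjusted p 0.0915). Top2a, which untangles DNA at division, had a difference of -2.51 (adjusted p 0.0898). With the set term 12 of the 13 passed, all lower, against 5.92% of all genes.

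Median differences were -0.31 for the transforming growth factor beta list and -0.19 for the PI3K and Akt list, against -0.16 for all genes. Tgfb2, a transforming growth factor beta ligand, was at 4.2 and 5.2 RPKM in caPI3Kalpha TAC, 3.0 and 2.0 in caPI3Kalpha sham, 8.2, 12.8 and 9.3 in WT TAC and 2.1, 2.2, 2.6 and 2.2 in WT sham. TAC and sham did not overlap in either genotype, and caPI3Kalpha TAC lay under WT TAC (log2 changes 0.81 in caPI3Kalpha and 1.91 in WT, difference -1.11, adjusted p 0.183). Ctgf, a matricellular target of that pathway, had log2 changes of 1.10 in caPI3Kalpha and 2.24 in WT. Of 16 listed ligands, receptors and targets none passed in limma, and 2 were lower at an unadjusted p under 0.05 (8.97% of all genes). All 16 differences were below 0, against 69.7% of all genes (median changes 0.06 in caPI3Kalpha and 0.51 in WT). Tgfbr2, the type II receptor, had log2 changes of 0.08 in caPI3Kalpha and 0.81 in WT. Of 28 genes of the PI3K and Akt pathway none passed in limma, and none had a lower or higher response at an unadjusted 0.05 either, a count of 0, with medians of -0.02 in caPI3Kalpha and 0.18 in WT, close to those of all genes. Igf1r, the receptor above PI3K, was at 2.2 and 2.5 RPKM in caPI3Kalpha TAC, 2.6 and 2.4 in caPI3Kalpha sham, 3.8, 4.1 and 4.2 in WT TAC and 2.5, 2.4, 2.7 and 2.5 in WT sham, so only WT TAC stood apart (adjusted p of the difference 0.256, 0.0422 with the set term).

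**Figure D4:**
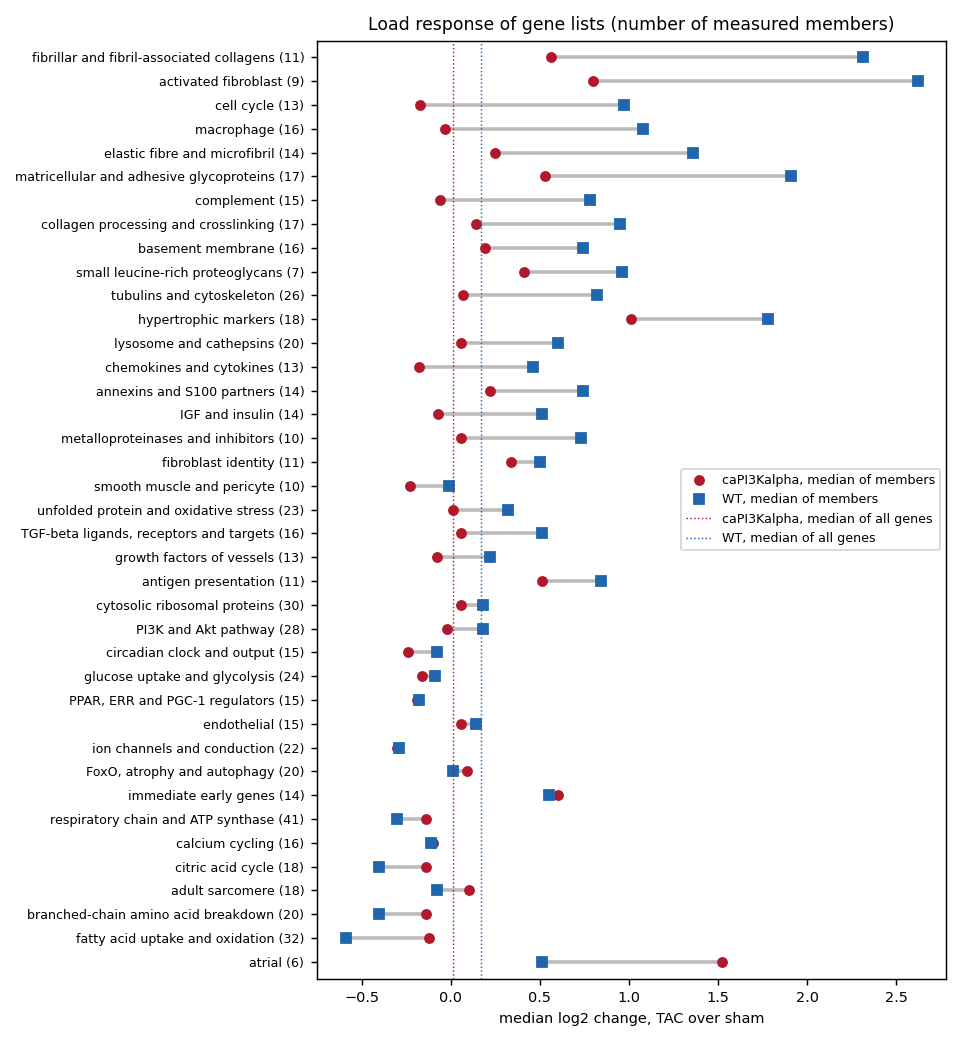
Median log2 change of TAC over sham for each gene list with 6 or more measured members, in caPI3Kalpha (red circles) and WT (blue squares), ordered by the median difference, with dotted lines at the medians of all genes. The lowest median difference, -1.63, is that of the list named fibrillar and fibril-associated collagens, which also holds Col8a1, Col6a1 and Col6a2. Hypertrophic markers have the highest caPI3Kalpha median among lists with a lower response.

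Cardiomyocyte genes were among the responses kept in caPI3Kalpha. Of 18 hypertrophic markers, 14 rose in WT at the adjusted threshold, against 13.6% of all genes. In caPI3Kalpha 13 of them were higher at an unadjusted p under 0.05, against 2.93% of all genes, and 9 were counted as kept. None passed in limma as lower in the difference, yet 14 of the 18 differences were below 0 (69.7% of all genes), 6 were lower at an unadjusted p under 0.05 (8.97%), and 5 passed as lower with the set term (5.92%). Their median log2 change was 1.01 in caPI3Kalpha and 1.78 in WT. Nppa, the atrial natriuretic peptide, was at 426.3 and 650.9 RPKM in caPI3Kalpha TAC, 150.9 and 85.5 in caPI3Kalpha sham, 1219.1, 788.6 and 631.2 in WT TAC and 117.3, 55.5, 75 and 68.9 in WT sham. TAC stood above sham in both genotypes without overlap, and the TAC groups overlapped. The change was 4.62-fold in caPI3Kalpha and 11.0-fold in WT (difference -1.26, -2.35 to -0.17, limma adjusted p 0.382). Atrial genes as a list had 6 members, of which 2 were at 0 in some library and which summed to 492 to 660 RPKM in caPI3Kalpha TAC, 97.6 to 159 in caPI3Kalpha sham, 644 to 1230 in WT TAC and 59.8 to 126 in WT sham, a sum that includes Nppa; the part of atrial tissue was not tested.

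Ankrd1, a stretch-responsive ankyrin repeat protein, was at 1426.5 and 1688.1 RPKM in caPI3Kalpha TAC, 643.1 and 500.1 in caPI3Kalpha sham, 1446.5, 2295.1 and 2294.0 in WT TAC and 439.1, 378.9, 591.0 and 645.9 in WT sham. TAC was above sham throughout, and WT TAC 1, the WT library of the same set, lay within the range of caPI3Kalpha TAC. Its caPI3Kalpha change was 73.7% of the WT log2 change (difference -0.52, -1.29 to 0.26, limma adjusted p 0.694). Xirp2, an actin-binding protein of the intercalated disc, had a 2.23-fold change in caPI3Kalpha and 4.61-fold in WT, and Nppb, the B-type natriuretic peptide, 2.37-fold in caPI3Kalpha and 4.77-fold in WT. For Xirp2 the difference of -1.05 missed the threshold (adjusted p 0.165) but passed with the set term (0.0201), so its class depends on that choice. Acta1, skeletal alpha actin, was at 1567.3 and 1806.4 RPKM in caPI3Kalpha TAC, 448.3 and 403.8 in caPI3Kalpha sham, 1202.7, 1046.4 and 1063.5 in WT TAC and 455.2, 89.9, 93.7 and 47.4 in WT sham. WT sham 6, of the first set, was at the level of caPI3Kalpha sham and the other WT shams far below it. The difference was -1.26 (-3.29 to 0.77, limma adjusted p 0.728) over all libraries and 0.58 in the first set alone, so its direction depends on the WT sham used.

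Not all kept genes were cardiomyocyte genes. Cilp, a cartilage matrix protein that load raises in fibroblasts, was at 4.9 and 8.1 RPKM in caPI3Kalpha TAC, 1.7 and 0.9 in caPI3Kalpha sham, 8.9, 14.5 and 9.8 in WT TAC and 1.2, 0.9, 0.6 and 0.4 in WT sham. Every TAC library was above every sham library of either genotype (changes 3.88-fold in caPI3Kalpha and 9.14-fold in WT, adjusted p of the difference 0.349). Thbs4, thrombospondin 4, had a 2.69-fold change in caPI3Kalpha and 6.65-fold in WT, and Serpinf1, a secreted serpin, had a 2.18-fold change in caPI3Kalpha and 3.59-fold in WT. Itgbl1, a secreted integrin-like protein, had 75.8% of its WT log2 change in caPI3Kalpha. Also kept, though a muscle gene, was Itgb1bp3, the nicotinamide riboside kinase of muscle, with a 2.40-fold change in caPI3Kalpha and 4.66-fold in WT. Its difference of -0.96 missed the threshold (limma adjusted p 0.226) but passed with the set term (0.0488), so its class depends on that choice. The kept genes thus include matrix genes beside the 28, and which genes fall in each class rests on thresholds and not on a test between classes.

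In Aqp8 and Mylk4, also of the kept class, the caPI3Kalpha change was as large as the WT change or larger. Aqp8, a water channel, was at 4.1 and 8.1 RPKM in caPI3Kalpha TAC, 0.8 and 0.5 in caPI3Kalpha sham, 3.0, 2.2 and 3.0 in WT TAC and 0.6, 0.3, 1.1 and 0.4 in WT sham. The caPI3Kalpha TAC libraries were the highest of all (log2 changes 2.46 in caPI3Kalpha and 1.6 in WT, difference 0.87, -0.19 to 1.92, limma adjusted p 0.599). Mylk4, a kinase of the myosin light chain kinase family, was lower with load: it was at 17.1 and 12.6 RPKM in caPI3Kalpha TAC, 45.8 and 47.9 in caPI3Kalpha sham, 19.7, 25.6 and 30.0 in WT TAC and 50.6, 86.3, 75.5 and 69.8 in WT sham. TAC was below sham without overlap in both genotypes, with log2 changes of -1.64 in caPI3Kalpha and -1.47 in WT, and the difference of -0.17 (-0.89 to 0.54) had an adjusted p of 0.925 (limma). The 50 kept genes held 6 of the 22 WT falls and 44 of the 308 WT rises.

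**Figure D5:**
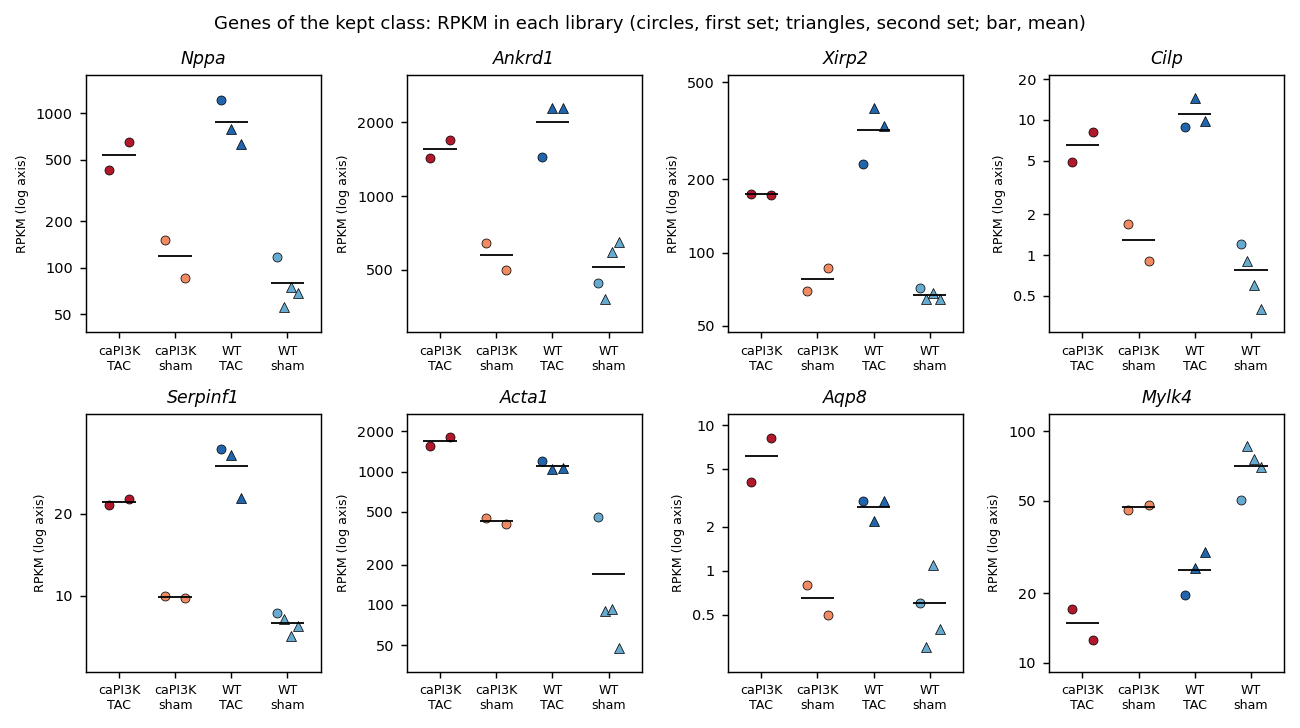
RPKM of 8 genes of the kept class in each of the 11 libraries on a log axis, by group, with circles for the first library set, triangles for the second and a bar at the group mean. TAC and sham part within both genotypes, and in Acta1 the first-set WT sham library, at 455.2 RPKM, lies with caPI3Kalpha sham.

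No calcium cycling or adult sarcomere gene passed in limma. Of 16 calcium cycling genes 11 had a difference above 0 (median 0.17), with 2 lower and 1 higher at an unadjusted p under 0.05, and of 18 adult sarcomere genes 15 had one above 0 (median 0.23), with 1 lower and 2 higher, against 30.3% of all genes above 0. At that unadjusted p 8.97% of all genes were lower and 1.34% higher. Atp2a2, which pumps calcium back into the sarcoplasmic reticulum, was at 1665.8 and 1719.2 RPKM in caPI3Kalpha TAC, 2386.7 and 2233.4 in caPI3Kalpha sham, 1860.7, 2232.9 and 2134.4 in WT TAC and 2667.0, 2950.5, 2888.5 and 3108.6 in WT sham. TAC lay below sham in both genotypes, and the log2 difference of 0.04 had an interval of -0.27 to 0.34 (limma adjusted p 0.968), although it was -0.41 under quantile normalization. Myh6 had a 0.812-fold change in caPI3Kalpha and 0.624-fold in WT (adjusted p of the difference 0.601). Ryr2, the calcium release channel, was at 79.0 and 66.3 RPKM in caPI3Kalpha TAC, 110.0 and 135.0 in caPI3Kalpha sham, 103.1, 120.1 and 105.0 in WT TAC and 107.8, 127.5, 111.7 and 125.2 in WT sham. It was lowest in caPI3Kalpha TAC while WT TAC overlapped WT sham, and its difference of -0.64 had an adjusted p of 0.267 (0.0319 with the set term).

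No gene passed in limma with a higher response in caPI3Kalpha, whatever its WT change, and 120 did so at an unadjusted p under 0.05. Several metabolic lists had most differences above 0, against 30.3% of all genes: among 32 listed genes for taking up and oxidizing fatty acids, 30 had a difference above 0 and 13 an unadjusted p under 0.05 on that side (1.34% of all genes), with a median change of -0.12 in caPI3Kalpha and -0.59 in WT, where 20 were lower at the adjusted threshold (2.85% of all genes). Ucp3, a mitochondrial carrier that rises with fatty acid use, was at 8.7 and 8.0 RPKM in caPI3Kalpha TAC, 4.9 and 5.8 in caPI3Kalpha sham, 3.2, 3.2 and 3.0 in WT TAC and 7.0, 9.7, 5.2 and 11.1 in WT sham. TAC and sham parted upward in caPI3Kalpha and downward in WT, a log2 difference of 1.82 (1.06 to 2.58, limma adjusted p 0.0655). Pdk4, which holds back glucose oxidation, was at 94.6 and 156.5 RPKM in caPI3Kalpha TAC, 52.1 and 70.0 in caPI3Kalpha sham, 53.5, 49.9 and 51.4 in WT TAC and 63.9, 140.2, 75.3 and 123.0 in WT sham. It showed the same opposite order, with wide spread among the WT shams (difference 1.89, adjusted p 0.128). Hadh, a dehydrogenase of beta oxidation, had log2 changes of 0.46 in caPI3Kalpha and -0.31 in WT (adjusted p 0.233).

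Citric acid cycle genes had 18 of 18 differences above 0, with medians of -0.14 in caPI3Kalpha and -0.40 in WT. Respiratory chain genes had 39 of 41 above 0 (medians -0.14 in caPI3Kalpha and -0.30 in WT), and genes of branched-chain amino acid breakdown 19 of 20 (medians -0.14 in caPI3Kalpha and -0.40 in WT). None of these passed in limma, and 1, 2 and 1 of them were higher at an unadjusted p under 0.05, against 1.34% of all genes. Glucose uptake and glycolysis had 15 of 24 differences below 0 (median -0.13) and regulators of the PPAR, ERR and PGC-1 families 9 of 15 (median -0.09). Both were near all genes, with 69.7% below 0 and a median of -0.16. At an unadjusted p under 0.05 in limma, 3 of the 24 were higher and 2 lower, against 1.34% and 8.97% of all genes, and none of the 15 was either. Just outside the threshold with a higher response in caPI3Kalpha was Car4, a membrane-bound carbonic anhydrase chosen after its values were seen: it was at 7.1 and 7.3 RPKM in caPI3Kalpha TAC, 5.9 and 8.1 in caPI3Kalpha sham, 3.7, 3.4 and 3.7 in WT TAC and 8.2, 11.6, 8.5 and 8.8 in WT sham. Only WT TAC was low, and the difference of 1.3 (0.77 to 1.82) had an adjusted p of 0.0611. Just outside on the other side stood Ctss, a macrophage cathepsin, at 0.0591, while the last genes inside, Dynll1, Scd2 and Serpine2, were at 0.0455. Of 14 immediate early genes none passed in limma. At an unadjusted p under 0.05, 1 was lower and 2 were higher, against 8.97% and 1.34% of all genes. The median changes of the 14 were 0.60 in caPI3Kalpha and 0.55 in WT.

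With the set term the picture widened: 532 genes (5.92%) had a lower and 75 (0.835%) a higher response in caPI3Kalpha (limma, adjusted p under 0.05). All 28 genes were among the 532. In WT 2975 genes (33.1%) were then higher and 810 (9.01%) lower after TAC, and in caPI3Kalpha 58 (0.645%) and 35 (0.389%). By the class definitions above, 31 responses were then gained in caPI3Kalpha. Higher genes with the set term included Ucp3 (adjusted p 0.0126), Pdk4 (0.0230), Hadh (0.0325), Car4 (0.00904), Hrc, a histidine-rich calcium-binding protein of the sarcoplasmic reticulum (0.00763), Dusp1, a phosphatase of MAP kinases (0.0266), and Rasd1, a small GTPase chosen after its values were seen (0.0143). Of the fatty acid list, 10 were higher and none lower. The size of the set effect comes from the WT libraries, since all caPI3Kalpha libraries are in the first set, and that it is alike in caPI3Kalpha cannot be tested here. In the first set alone no gene passed in limma, with 1115 genes at an unadjusted p under 0.05. WT has 1 library per operation there, so its spread is assumed to be that of the caPI3Kalpha pairs. The 28 genes, which were chosen on these libraries among others, had differences of -3.44 to -0.94.

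With 2 caPI3Kalpha libraries per operation, single libraries carried weight. Postn, Fstl1 and Ccl8 passed in each of the 11 fits that left out 1 library, and Vim passed in 10. Scd2, Sulf1 and Dynll1 passed in 1, Ctsc in 2, and Fn1, Col3a1, Vcan, Serpina3m, Serpine2, Anxa2 and Iqgap1 in 3. All 28 differences stayed below 0 in each of these fits. Under quantile normalization 15 genes had a lower (0.167%) and 3 a higher response (0.0334%), and centred on library medians 12 a lower (0.134%) and none a higher one. The count of lower responses was 3 without caPI3Kalpha TAC 11, 4 without caPI3Kalpha TAC 211, 5 without caPI3Kalpha sham 5, 12 without caPI3Kalpha sham 8, 4 without WT TAC 17, 13 without WT sham 7, 16 without WT sham 13, 15 without WT sham 15 and 61 without WT sham 6.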

How the data were processed

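Messenger RNA was measured in 11 left ventricles. RPKM values were computed by the authors and deposited; per the labels' protocols, libraries were poly-A selected, 6 were pooled per lane and reads were single-end. The submitters' processing notes list CASAVA 1.6, Bowtie and Partek 6.5, and the build mm9, without saying what each did; how reads were mapped is not given in the sources used here. The table's 9251 lines include 261 blank ones, 1 with an error mark and 2 repeats, all left out. Read depth is unknown, so no counting interval is given. Groups come from the titles; for WT sham 15 the source name gives another number, and the title, which matches the column, was used.

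RPKM was transformed to log2(RPKM + 0.5) and fitted with limma 3.58.1 in R 4.3.3 (lmFit, eBayes with trend) in 1 model of 4 groups. Tests were two-sided, with Benjamini-Hochberg adjustment over 8987 genes and a threshold of 0.05; every gene met the minimum mean of 1 RPKM. The procedure was tested on simulated data. Library sets were taken by the sign on the first principal component. Alternatives were pseudocounts of 0.1 and 1, no filter, a filter at a mean of 5 RPKM, quantile normalization, centring on library medians, robust fitting, no trend, a set term, the first set alone and leaving out each library. Named genes are the 10 widest differences past the threshold, the 3 lowest p-values of each list, a set of heart genes, and leading genes of each class; Car4, Rasd1 and others of the 28 were named after their values were seen. Members and gene lists were chosen with earlier results of these data known. Promoter sequences are from RefSeq GRCm38.p6; of the genes tested, 6445 had an entry. MicroRNA libraries are not analysed here.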

Additional observations from a re-analysis of the deposited data

Results flagged for a closer look

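The log2 difference in load response, caPI3Kalpha minus WT, passed the limma test of the difference itself for 28 genes. For secreted matrix proteins and their enzymes it was -2.91 for Postn, -2.45 for Fn1, -2.31 for Col3a1, -2.05 for Col14a1, -1.97 for Col5a2, -1.95 for Fstl1, -1.63 for Loxl2, -1.63 for Col8a1, -1.52 for Mfap5, -1.49 for Vcan, -1.41 for Bgn, -1.23 for Sparc and -1.04 for Sulf1. For the protease inhibitors it was -3.44 for Serpina3n, -2.67 for Serpina3m, -2.18 for Serpinb1a and -1.28 for Serpine2. Among immune genes Ccl8 had -3.39, Lcp1 -1.59, Fcgr2b -1.52 and Ctsc -1.40. The rest were S100a4 at -2.86, Aldh1a2 at -2.77, Vim at -1.59, Anxa2 at -1.14, Scd2 at -1.05, Iqgap1 at -1.03 and Dynll1 at -1.02.

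In the group of 4 WT sham libraries, 1 library stood far from the rest for 2 of the genes named. Acta1 was at 455.2 RPKM in WT sham 6, against 93.7 RPKM in the next library, and Mfap4, a microfibril-associated protein, was at 3.3 RPKM in WT sham 6, against 2.2 RPKM in the next. Chance alone gives such a gap in about 1 in 20 groups, so 4.5 would be expected among the 90 genes examined, more than the 2 seen. WT sham 6 is the WT sham library of the first set, and the part of the set in these 2 gaps was not tested.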

How the results depend on the processing

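All 28 differences stayed below 0 in each alternative run; a filter at a mean of 5 RPKM tested 20 of them. The count of lower responses (28) was 18 with that filter, 15 under quantile normalization (14 of the 28), 12 centred on library medians, 532 with the set term, 0 in the first set alone, and 3 to 61 without single libraries. Higher responses (0) numbered 3 under quantile normalization, 75 with the set term and 0 to 5 without single libraries. WT calls (1481) numbered 862, 925, 3785 and 44 with the filter, quantile normalization, the set term and the first set alone, and 729 to 1994 without single libraries. The 0 caPI3Kalpha calls became 93 with the set term and 0 to 2 without single libraries. Lost responses (17) numbered 10 with the filter, 10 under quantile normalization, 7 centred, 28 with no trend, 131 with the set term, 0 in the first set alone and 2 to 47 without single libraries. Reduced responses (8) numbered 5 centred, 51 with the set term, 0 in the first set alone and 1 to 15 without single libraries. Kept responses (50) numbered 32 with the filter, 5 in the first set alone, 178 with no fold limit and 25 to 62 without single libraries. Gained responses numbered 31 with the set term and 0 in every fit without a library. Higher calls in WT were 1225 of 1481; under quantile normalization 486 were higher and 439 lower, and centred 561 and 610. Both scalings moved the median difference of all genes to 0.02 and 0.01. The fits in the first set alone rest on fewer libraries, and the causes of the other moves were not tested.

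The difference reversed for Acta1 in the first set alone (0.58), for Atp2a2 under quantile normalization (-0.41) and without single libraries (-0.04 to 0.09), for Myh7 under quantile normalization (-0.08) and without single libraries (-0.23 to 0.64), and for Mylk4 without single libraries (-0.39 to 0.04). None of these passed the threshold over all libraries. No paired analysis was possible because the 4 mRNA groups share no replicate numbers. Groups of 2 and unknown depth limit what could be detected: a response that missed the threshold is not shown to be absent.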

Other observations

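Other genes named by the same rule gave these values. Fhl1, a LIM-domain protein of the sarcomere and a hypertrophic marker, was at 100.9 and 94.2 RPKM in caPI3Kalpha TAC, 127.6 and 74.2 in caPI3Kalpha sham, 218.4, 370.7 and 336.7 in WT TAC and 104.7, 76.0, 73.3 and 62.3 in WT sham. It was high in WT TAC alone, unlike Nppa and Ankrd1, although its difference of -1.95 (95% interval -2.80 to -1.09) missed the threshold in limma (adjusted p 0.0778, 0.0158 with the set term). Acta2, smooth muscle alpha actin, was at 14.9 and 19.0 RPKM in caPI3Kalpha TAC, 58.3 and 27.7 in caPI3Kalpha sham, 66.5, 41.5 and 30.5 in WT TAC and 44.8, 48.4, 38.1 and 50.3 in WT sham. Only caPI3Kalpha TAC was below all other groups, with a log2 difference of -1.19 (adjusted p 0.372).

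Irs1, the adaptor between the insulin receptor and PI3K, was at 3.1 and 3.2 RPKM in caPI3Kalpha TAC, 6.9 and 4.8 in caPI3Kalpha sham, 5.8, 7.2 and 6.5 in WT TAC and 7.3, 6.4, 7.2 and 6.2 in WT sham. Its log2 change was -0.78 in caPI3Kalpha and -0.06 in WT (adjusted p of the difference 0.269). Kcnq1, a repolarizing potassium channel, had log2 changes of -0.71 in caPI3Kalpha and -0.17 in WT (adjusted p 0.465), and Kcnv2, a modifying potassium channel subunit, had changes of -0.40 in caPI3Kalpha and -1.09 in WT (adjusted p 0.323). Retnla, a product of alternatively activated macrophages, was at 0.9 and 1.3 RPKM in caPI3Kalpha TAC, 3.1 and 1.2 in caPI3Kalpha sham, 0.7, 0.4 and 0.3 in WT TAC and 1.6, 5.2, 3.6 and 5.6 in WT sham. All WT TAC libraries were below all other libraries, while 12 of 16 macrophage markers were higher in WT after TAC (adjusted p of the WT change 0.00430, of the difference 0.433).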
